A study of Homo sapiens with 12 samples.

Results

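The 44 genes described here are direct transcriptional targets of the tumor suppressor p53, taken by symbol from a list with no threshold on a measured value, though it was drawn up with earlier results of these data known. Of the 44, 43 had a row in the deposited table of 14828 genes, and all 43 were among the 14624 genes tested. TNFRSF10C was not analysed here. The cells were 22Rv1, a human prostate carcinoma cell line. All carried a lentiviral pTRIPZ vector, in which doxycycline switches on a short hairpin RNA (shRNA), and had been selected with puromycin. By the labels the groups differed in the shRNA alone: shNT, which is nontargeting, or shCENPA1 or shCENPA2, which target the mRNA of CENPA, the centromeric histone H3 variant. By the paper, doxycycline at 2 µg/ml lowered CENPA against shNT after 72 h in this experiment, and whether the shNT cells also received the drug is not given in the sources used here. Each shRNA had 2 libraries of mRNA, each run in lanes 7 and 8, and both lanes of a library were averaged, so that n = 2 libraries per shRNA. The sources used here do not say that these came from separate cultures, and p-values measure only the spread between them.

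p53 is a transcription factor that is held low by MDM2 in unstressed cells and is stabilized by DNA damage, ribosomal stress and other insults. It binds a pair of half-sites in or near its target genes and raises genes that arrest the cell cycle, start apoptosis, tune metabolism or feed back on p53 itself. It lowers cell cycle genes indirectly, through CDKN1A and the repressor complex DREAM. Many p53 targets also answer to other factors. BBC3, GADD45A, GDF15, PMAIP1, SESN2 and TNFRSF10B are known to be raised as well by ATF4 or CHOP (the product of DDIT3), the transcription factors of the integrated stress response. In prostate epithelium, as elsewhere, its targets are known for slowing the growth of damaged cells.

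Values are log2 RPKM, reads scaled by both gene length and library size and put on a base 2 logarithm, so that levels of different genes may be compared. A difference is the mean log2 RPKM of one group less that of another, given with its standard error (SE), and an adjusted p is from limma with Benjamini-Hochberg adjustment over the 14624 genes. Libraries held 79172294 to 133074655 reads on genes, and the tested p53 targets held 180 to 35184 reads in a library. CENPA stood at 2.46 and 2.18 with shNT, at 0.50 and 0.58 with shCENPA1, and at -0.47 and -0.41 with shCENPA2. It was therefore lower with both CENPA shRNAs, and lower with shCENPA2 than with shCENPA1 (difference -0.98 ± 0.16 SE, adjusted p = 0.0209). CENPA shares exonic sequence with SLC35F6 on its own strand, so that the assignment of its reads is uncertain. The 10 markers of luminal prostate epithelium were all present, with a summed level of 829 to 868 RPKM with shNT, 806 to 846 with shCENPA1 and 818 to 829 with shCENPA2. Of 14 markers of fibroblasts, leukocytes, endothelium and basal cells, 3 had a row, and those of leukocytes, endothelium and basal cells had none. The 3 were the fibroblast genes COL1A1, DCN and LUM. DCN differed from shNT by 1.93 with shCENPA1 and 1.48 with shCENPA2, and LUM by -0.41 and 0.74. Their summed level was 3.68 to 3.95 RPKM with shNT, 3.55 to 3.57 with shCENPA1 and 5.86 to 5.98 with shCENPA2, and their part in the results below was not tested.

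In shNT cells the p53 targets were spread over a wide range of levels, with a median of 2.69 log2 RPKM against 2.36 for all genes tested. CCNG1, a cyclin that recruits a phosphatase to MDM2, was the highest at 6.52, above 97.8% of the genes tested. The antiproliferative gene TOB1 followed at 5.87, the apoptosis inhibitor TRIAP1 at 5.08 and the pore-forming apoptosis effector BAX at 4.42. Each of these 4 lay above the next gene in both shNT libraries. GDF15 at 4.14, the death receptor gene TNFRSF10B at 4.12 and NINJ1, a protein of plasma membrane rupture, at 4.11 could not be ordered, since their libraries overlapped. At the low end stood the glutaminase GLS2 at 0.86, the quinone oxidoreductase TP53I3 at 0.03 and the autophagy gene DRAM1 at -0.35. Of 42 neighboring pairs in the order, 18 did not overlap between the shNT libraries.

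**Figure D1:**
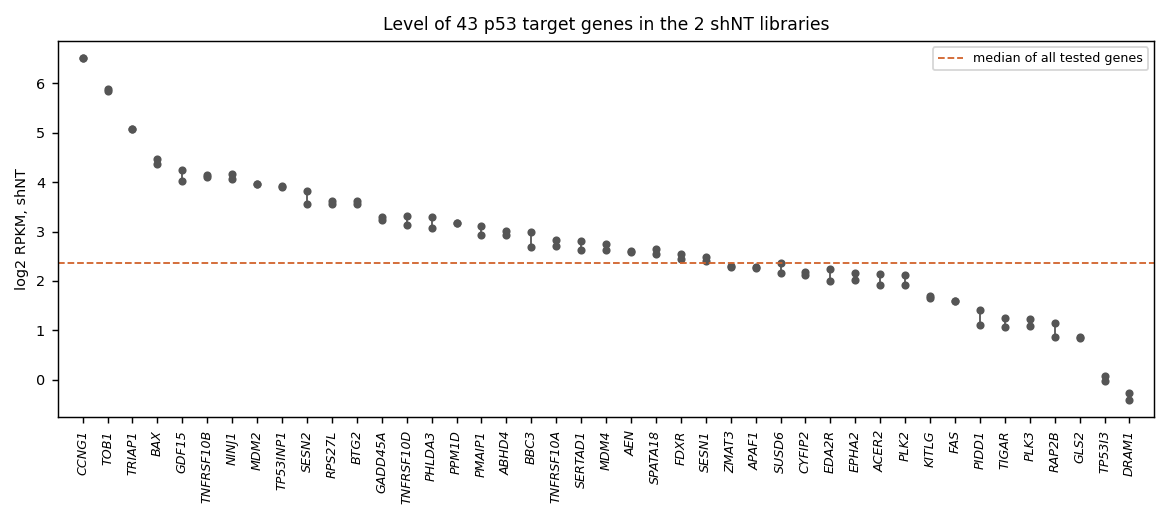
Level of each of the 43 p53 targets in shNT cells, as log2 RPKM. Points are the 2 libraries of a gene, joined by a line, genes are ordered by their mean, and the dashed line is the median of all genes tested (2.36); the order runs from CCNG1 at 6.52 to DRAM1 at -0.35, and most pairs of libraries lie close together.

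The p53 targets did not move as one group after CENPA depletion. With shCENPA1, 6 of the 43 rose at an adjusted p under 0.05 (13.95% of them, against 2.69% of all genes tested) and 1 fell (2.33%, against 4.45%). With shCENPA2, 9 rose (20.9%, against 8.05% of all genes tested) and 4 fell (9.30%, against 10.5%). The 6 genes that rose with shCENPA1 were also among the 9 that rose with shCENPA2: GDF15, PMAIP1, TNFRSF10B, TNFRSF10D, SESN2 and ABHD4. TP53I3, PLK2 and CYFIP2 rose with shCENPA2 alone past the threshold, at differences of 0.44, 0.30 and 0.32 with shCENPA1. FAS fell with shCENPA1, and APAF1, TP53INP1, BTG2 and TOB1 fell with shCENPA2. The counts of genes that fell dropped to 0 without shNT library 1 or shNT library 2 with either CENPA shRNA, and that with shCENPA1 also to 0 without shCENPA1 library 2, while it was 2 without either shCENPA2 library. Both comparisons share the shNT libraries and are not independent. The median difference of the 43 was -0.01 with shCENPA1 and 0.05 with shCENPA2, beside 0.00 and 0.01 for all genes tested, and 21 and 23 of the 43 differences were above 0. All 4 libraries with a CENPA shRNA lay above both shNT libraries for 13 of the 43 (30.2%, against 20.3% of all genes tested) and below both for 14 (32.6%, against 20.5%). Few of the changes were large. Beyond a 2-fold difference, GDF15 rose with shCENPA1, where 0.821% of all genes tested rose so far, and GDF15 and PMAIP1 rose with shCENPA2, where 1.68% did. No p53 target that passed limma's test fell beyond 2-fold with either shRNA, whereas 1.83% of all genes tested did so with shCENPA1 and 4.45% with shCENPA2. In these bulk samples fewer cells of a state and less RNA per cell cannot be told apart.

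**Figure D2:**
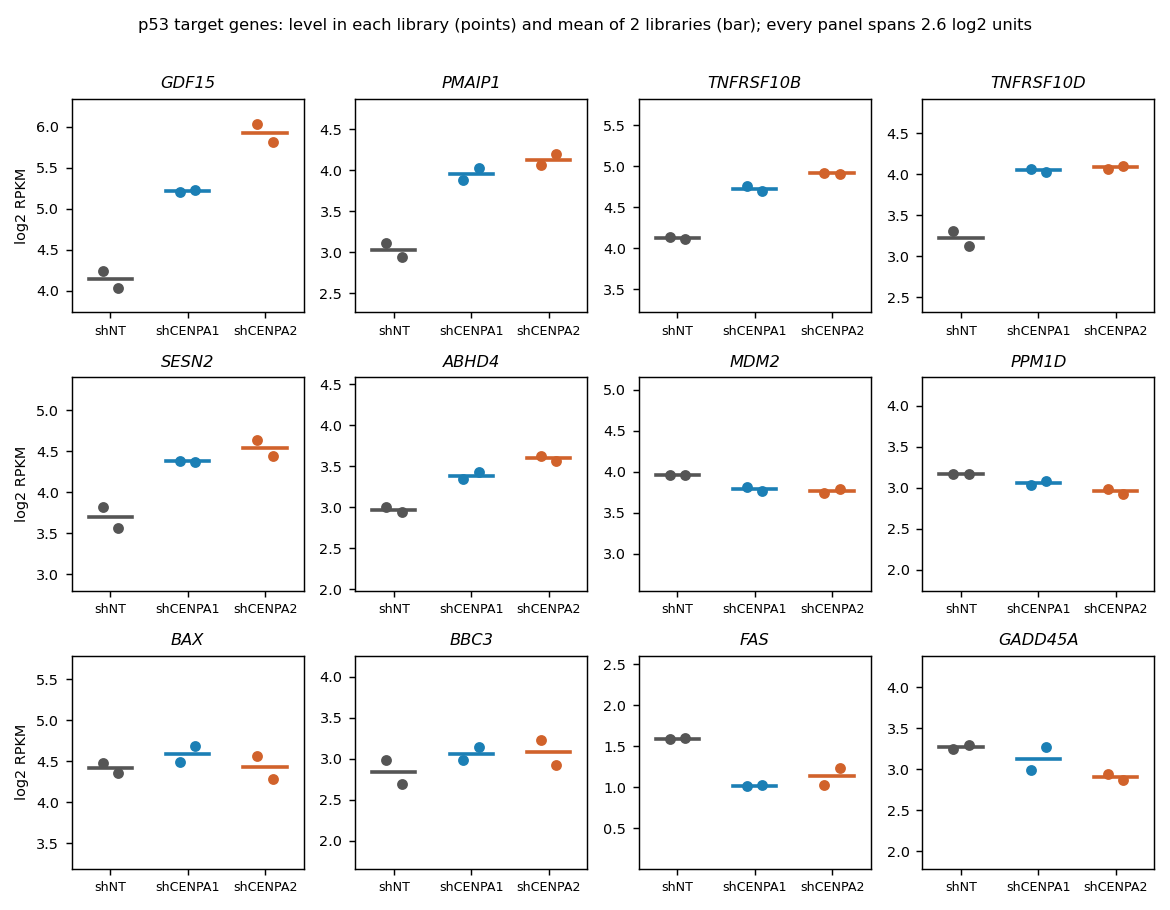
Level of 12 p53 targets in every library, as log2 RPKM, with shNT in gray, shCENPA1 in blue and shCENPA2 in orange. Points are libraries, horizontal bars are means of 2 libraries, and every panel spans the same height; in GDF15, PMAIP1, TNFRSF10B, TNFRSF10D, SESN2 and ABHD4 all 4 libraries with a CENPA shRNA sit above both shNT libraries, and in FAS, MDM2 and PPM1D they sit below.

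GDF15, a secreted stress cytokine of the transforming growth factor β superfamily, changed the most among the p53 targets. Its level was 4.24 and 4.03 with shNT, 5.21 and 5.23 with shCENPA1, and 6.04 and 5.82 with shCENPA2. The 3 groups did not overlap. The difference from shNT was 1.08 ± 0.11 SE with shCENPA1 (2.12-fold, adjusted p = 0.000447) and 1.79 ± 0.11 SE with shCENPA2 (3.45-fold, adjusted p = 1.27e-05). GDF15 was also the only member that differed between the CENPA shRNAs at an adjusted p under 0.05. It was 0.71 ± 0.11 SE higher with shCENPA2 than with shCENPA1 (adjusted p = 0.0142), and CENPA itself was lower with shCENPA2. That call was lost without either shCENPA1 library (differences 0.70 and 0.72, adjusted p = 0.103 and 0.186) and in limma without a trend. Between the CENPA shRNAs 0.39% of all genes tested were called higher with shCENPA2 and 1.03% lower. No p53 target was called lower with shCENPA2 than with shCENPA1 by limma or by limma's voom on recovered reads, and 5 of the 43 had an unadjusted p under 0.05 in either direction. The gene lies on chromosome 19, from 18374731 to 18389176 on the + strand.

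PMAIP1 encodes NOXA, a small protein of the BCL2 family that sequesters the survival factor MCL1. Its level was 3.11 and 2.94 with shNT, 3.89 and 4.02 with shCENPA1, and 4.06 and 4.20 with shCENPA2, so that both CENPA shRNAs lay above shNT in every library. The difference from shNT was 0.93 ± 0.11 SE (adjusted p = 0.000861) with shCENPA1 and 1.10 ± 0.11 SE (adjusted p = 0.000132) with shCENPA2. PMAIP1 lies on chromosome 18, from 59899996 to 59904305 on the + strand. SESN2, a sestrin that restrains the growth kinase complex mTORC1 when amino acids are short, stood at 3.82 and 3.57 with shNT, at 4.39 and 4.37 with shCENPA1, and at 4.63 and 4.44 with shCENPA2. It rose by 0.68 ± 0.11 SE (adjusted p = 0.00582) with shCENPA1 and by 0.85 ± 0.11 SE (adjusted p = 0.00082) with shCENPA2. The shCENPA1 call of SESN2 was lost without shCENPA1 library 1 (0.67, adjusted p = 0.0593), shCENPA1 library 2 (0.69, adjusted p = 0.0709) or shNT library 2 (0.56, adjusted p = 0.0638). SESN2 lies on chromosome 1, from 28259518 to 28282491 on the + strand.

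ABHD4, a lipase that acts on N-acyl phospholipids, had the smallest rise of the 6. Its level was 3.01 and 2.94 with shNT, 3.34 and 3.43 with shCENPA1, and 3.63 and 3.56 with shCENPA2. The groups did not overlap. The difference from shNT was 0.41 ± 0.10 SE (adjusted p = 0.0318) with shCENPA1 and 0.62 ± 0.10 SE (adjusted p = 0.00196) with shCENPA2. The shCENPA1 call was lost without shCENPA1 library 1 (0.46, adjusted p = 0.0656), shCENPA1 library 2 (0.37, adjusted p = 0.146), shNT library 1 (0.45, adjusted p = 0.168) or shNT library 2 (0.38, adjusted p = 0.362). That call was also lost in limma without a trend. ABHD4 lies on chromosome 14, from 22598290 to 22612963 on the + strand.

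Promoter sequence is shown for GDF15, PMAIP1 and SESN2, those of the 6 risers with the largest differences among the genes with an entry in the RefSeq promoter table of GRCh38.p14. Each line holds the 120 bases directly before the annotated start site, 5′ to 3′ on the gene's strand, at chr19:18386038-18386157, chr18:59899876-59899995 and chr1:28259398-28259517. Capitals mark a TATAAA box.
GDF15: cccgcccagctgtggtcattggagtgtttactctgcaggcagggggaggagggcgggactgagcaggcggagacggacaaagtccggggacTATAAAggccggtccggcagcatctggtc
PMAIP1: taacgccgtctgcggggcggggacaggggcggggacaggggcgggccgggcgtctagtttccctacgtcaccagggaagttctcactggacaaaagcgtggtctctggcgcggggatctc
SESN2: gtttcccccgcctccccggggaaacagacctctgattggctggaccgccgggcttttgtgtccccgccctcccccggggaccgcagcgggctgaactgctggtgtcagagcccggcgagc
All 3 are rich in G and C (64.2%, 67.5% and 70.8%), with 7, 12 and 10 CG pairs. TATAAA, read on both strands over 250 bases before to 50 after the start, was present in 11.5% of 35116 promoters, or for 13.99% of symbols. Among the 37 p53 targets with a promoter in the table it was present in GDF15 and KITLG.

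The p53 half-site consensus was searched in the same windows on both strands, because p53 binds pairs of such half-sites. It was present in 6.63% of all promoters, or for 8.06% of 27305 symbols with at least 1 promoter, and for 8 of the 37 p53 targets (21.6%). The 8 are shown with 15 bases on either side, 5′ to 3′ on the gene's strand of GRCh38.p14, and capitals mark the half-site.
ABHD4, chr14:22598279-22598318, + strand: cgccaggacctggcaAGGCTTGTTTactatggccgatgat
AEN, chr15:88621291-88621330, + strand: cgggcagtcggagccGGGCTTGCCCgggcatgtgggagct
FAS, chr10:88991294-88991333, + strand: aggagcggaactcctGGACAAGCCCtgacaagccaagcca
FDXR, chr17:74872981-74873020, - strand: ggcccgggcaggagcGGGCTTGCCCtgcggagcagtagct
PLK2, chr5:58460194-58460233, - strand: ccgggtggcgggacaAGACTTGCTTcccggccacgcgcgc
RAP2B, chr3:153162150-153162189, + strand: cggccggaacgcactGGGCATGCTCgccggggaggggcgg
RPS27L, chr15:63157512-63157551, - strand: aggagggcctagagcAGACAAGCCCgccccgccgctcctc
SESN1, chr6:109009013-109009052, - strand: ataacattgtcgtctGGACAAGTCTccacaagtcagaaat
Among these 8 genes, ABHD4 was called higher with both CENPA shRNAs, PLK2 was called higher with shCENPA2 and FAS was called lower with shCENPA1. FDXR differed from shNT by 0.27 and 0.37, AEN by -0.25 and -0.20, SESN1 by -0.16 and -0.17, RPS27L by -0.04 and -0.01, and RAP2B by 0.02 and 0.06, with shCENPA1 and shCENPA2 respectively. None of these passed limma's test on the deposited values, while voom on recovered reads called FDXR higher with shCENPA2 (adjusted p = 0.0435). The element TGATGNAA, which ATF4 shares with its partners, was present in 3.62% of all promoters, or for 4.46% of symbols, and for 1 of the 37 p53 targets (2.70%), PLK3. These matches describe the letters of a short window, and no binding was measured there.

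Of the feedback regulators of p53, which p53 itself induces, none was called with either shRNA by limma, and none had an unadjusted p under 0.05. MDM2, the ubiquitin ligase that degrades p53, stood at 3.97 and 3.96 with shNT, at 3.81 and 3.76 with shCENPA1, and at 3.74 and 3.80 with shCENPA2. All 4 libraries with a CENPA shRNA lay below both shNT libraries by a narrow margin. The difference was -0.18 (95% interval -0.37 to 0.02, adjusted p = 0.279) with shCENPA1 and -0.20 (95% interval -0.39 to 0.00, adjusted p = 0.155) with shCENPA2. PPM1D, the phosphatase WIP1 that reverses damage signaling to p53, stood at 3.17 and 3.16, at 3.04 and 3.08, and at 2.99 and 2.92 in the same order of groups. Its difference was -0.11 (95% interval -0.32 to 0.11) with shCENPA1 and -0.21 (95% interval -0.43 to 0.00) with shCENPA2. The MDM2 homolog MDM4 differed by -0.15 and 0.07, and CCNG1 by -0.08 and -0.19. MDM2 lies on chromosome 12, from 68808177 to 68845544 on the + strand, and an exon of CPM overlaps its exons on the other strand. PPM1D lies on chromosome 17, from 60600193 to 60666280 on the + strand. The libraries were strand-specific, while the strand setting of the read counting is not given in the sources used here.

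Among 8 genes of the mitochondrial and effector steps of apoptosis, PMAIP1 was the only one called higher. BBC3, which encodes the BCL2-family protein PUMA, stood at 2.98 and 2.68 with shNT, at 2.98 and 3.14 with shCENPA1, and at 3.23 and 2.93 with shCENPA2, with overlap between groups. Its difference was 0.23 (95% interval -0.09 to 0.55) and 0.24 (95% interval -0.08 to 0.56). BAX, the effector that permeabilizes mitochondria, stood at 4.48 and 4.36, at 4.49 and 4.69, and at 4.57 and 4.28 in the same order. Its shCENPA2 libraries overlapped both other groups, while those of shCENPA1 lay above those of shNT by a narrow margin. Its difference was 0.17 (95% interval -0.10 to 0.44) with shCENPA1 and 0.01 (95% interval -0.26 to 0.27) with shCENPA2. BAX and BBC3 lie on chromosome 19, from 48954815 to 48961798 on the + strand and from 47220822 to 47232766 on the - strand. APAF1, the scaffold of the apoptosome, fell with shCENPA2 (-0.43 ± 0.12 SE, adjusted p = 0.0431) and differed by -0.37 with shCENPA1 (adjusted p = 0.114). TP53INP1, a stress-induced partner of p53, fell with shCENPA2 (-0.44 ± 0.10 SE, adjusted p = 0.0187) and differed by -0.36 with shCENPA1 (adjusted p = 0.0777). The APAF1 call was lost without either shCENPA2 library or either shNT library (adjusted p = 0.118, 0.0561, 0.243 and 0.23), and also with median centring, quantile normalization, no trend or a single lane, and it was kept in 9 of 19 alternatives. The TP53INP1 call was lost without shCENPA2 library 1 or either shNT library (adjusted p = 0.0712, 0.107 and 0.13). That of TP53INP1 was also lost in limma without a trend. On the other strand, an exon of ANKS1B overlaps those of APAF1 and an exon of NDUFAF6 those of TP53INP1. The nuclease gene AEN, TRIAP1 and the caspase-2 platform PIDD1 were not called. PIDD1 spread widely between the shCENPA2 libraries, at 1.44 and 0.45.

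The death receptor genes split in direction. TNFRSF10B, which encodes the TRAIL receptor DR5, stood at 4.14 and 4.11 with shNT, at 4.75 and 4.70 with shCENPA1, and at 4.92 and 4.91 with shCENPA2. Each group lay apart from the others with little spread. Its difference was 0.60 ± 0.08 SE (adjusted p = 0.00229) with shCENPA1 and 0.79 ± 0.08 SE (adjusted p = 0.000225) with shCENPA2. TNFRSF10D, a decoy receptor of TRAIL with a truncated death domain, stood at 3.31 and 3.12 with shNT, at 4.06 and 4.03 with shCENPA1, and at 4.06 and 4.10 with shCENPA2. The CENPA shRNAs reached nearly one level, with a difference between them of 0.04 (95% interval -0.18 to 0.26). Its difference from shNT was 0.83 ± 0.10 SE (adjusted p = 0.000992) and 0.87 ± 0.10 SE (adjusted p = 0.000328). TNFRSF10A, the other TRAIL receptor with a full death domain, differed by 0.13 (95% interval -0.10 to 0.36) and 0.20 (95% interval -0.03 to 0.43). The TNFRSF10 genes are related in sequence and neighbors on chromosome 8, where TNFRSF10B runs from 23020133 to 23069031 and TNFRSF10D from 23135588 to 23164027 on the - strand, and reads that fit more than one of them could be assigned wrongly or dropped. An exon of RHOBTB2 overlaps those of TNFRSF10B on the other strand.

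FAS, the receptor of the FAS ligand, moved the other way. It stood at 1.58 and 1.60 with shNT, at 1.01 and 1.02 with shCENPA1, and at 1.03 and 1.24 with shCENPA2. Both CENPA shRNAs lay below shNT in every library. The shCENPA2 libraries lay above those of shCENPA1, 1 of them narrowly, at a difference of 0.11 (95% interval -0.20 to 0.43). It fell by 0.58 ± 0.14 SE with shCENPA1 (adjusted p = 0.04). With shCENPA2 the difference was -0.46 ± 0.14 SE (95% interval -0.78 to -0.14), which missed the threshold at an adjusted p of 0.0505. FAS was called lower with shCENPA2 in 6 of 19 alternatives, among them 1 added to RPKM, no trend and lane 8 only. The shCENPA1 call was lost without shCENPA1 library 1 or 2 (adjusted p = 0.104 and 0.149) and without shNT library 1 or 2 (adjusted p = 0.222 and 0.325), at differences of -0.57 to -0.58. That call was also lost with quantile normalization and in lane 8 alone. FAS lies on chromosome 10, from 88953813 to 89029605 on the + strand. It shares exonic sequence with STAMBPL1 on its own strand and with ACTA2 on the other, so that the assignment of its reads is uncertain. EDA2R, a receptor of an ectodysplasin isoform, differed by -0.22 and 0.09 and was not called.

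Growth arrest genes moved in both directions with shCENPA2. PLK2, a kinase of centriole duplication and stress checkpoints, rose by 0.54 ± 0.12 SE (adjusted p = 0.0154), a call that was lost without shNT library 2 (0.44, adjusted p = 0.179). TOB1 fell by 0.41 ± 0.08 SE (adjusted p = 0.00872) and its relative BTG2, which like TOB1 recruits the deadenylase complex CCR4-NOT to mRNA, fell by 0.42 ± 0.09 SE (adjusted p = 0.0112). Both of these calls were lost without shNT library 1 (adjusted p = 0.076 and 0.149) or shNT library 2 (adjusted p = 0.12 and 0.0942). An exon of TOB1-AS1 overlaps those of TOB1 on the other strand. With shCENPA1 no growth arrest member was called by limma, at differences of 0.30 for PLK2, -0.31 for TOB1 and -0.26 for BTG2. There 4 of the 6 had an unadjusted p under 0.05, and the share of all genes tested at that cutoff is not given here. GADD45A, a damage-induced partner of the replication clamp PCNA, stood at 3.24 and 3.30 with shNT, at 2.99 and 3.27 with shCENPA1, and at 2.94 and 2.87 with shCENPA2. Its difference was -0.14 (95% interval -0.40 to 0.12) with shCENPA1 and -0.36 (95% interval -0.63 to -0.10, adjusted p = 0.0587) with shCENPA2. GADD45A was called lower with shCENPA2 in 5 of 19 alternatives, among them lane 8 only and only the groups compared. GADD45A lies on chromosome 1, from 67685201 to 67688334 on the + strand. PLK3 differed by 0.24 and 0.37 and SERTAD1, a cofactor of E2F, by 0.36 and 0.17, with no call.

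Of 7 genes of metabolism and redox control, SESN2 was called higher with both shRNAs and TP53I3 with shCENPA2. TP53I3 rested on 192 to 451 reads and stood at 0.08 and -0.02 with shNT, at 0.33 and 0.60 with shCENPA1, and at 1.02 and 0.54 with shCENPA2. Its difference of 0.75 ± 0.21 SE (adjusted p = 0.0321) rested on shCENPA2 libraries that spread, and the call was lost without shCENPA2 library 1 (0.51, adjusted p = 0.127). It was also lost without either shCENPA1 library (adjusted p = 0.0526 and 0.053) and without shNT library 1 or 2 (adjusted p = 0.0935 and 0.155), with voom, with only the groups compared and in lane 8 alone, and it was kept in 11 of 19 alternatives. An exon of FAM228B overlaps those of TP53I3 on the other strand. SESN1, the sestrin most closely tied to p53, differed by -0.16 (95% interval -0.49 to 0.17) and -0.17 (95% interval -0.50 to 0.16), whereas SESN2 rose. TIGAR, which diverts glucose from glycolysis, differed by -0.01 with shCENPA1 and 0.40 with shCENPA2 (adjusted p = 0.0805), the ferredoxin reductase FDXR by 0.27 and 0.37, the glutaminase GLS2 by -0.28 and -0.41, and the ceramidase ACER2 by -0.63 and -0.53. None of these 4 passed limma's test on the deposited values. With shCENPA2, 6 of the 7 genes had an unadjusted p under 0.05, a count without the share of all genes tested beside it. With voom on recovered reads TIGAR and FDXR were called higher (adjusted p = 0.0473 and 0.0435) and GLS2 lower (adjusted p = 0.0401) with shCENPA2. An exon of SPRYD4 overlaps those of GLS2 on the other strand.

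Neither autophagy gene was called by limma with either shRNA, and 1 of the pair had an unadjusted p under 0.05, with shCENPA1. DRAM1, a lysosomal membrane protein, differed by -0.28 and -0.48, and SPATA18, which acts in mitochondrial quality control, by -0.38 and -0.22. Of the secreted and membrane signaling genes other than GDF15 and ABHD4, KITLG, the ligand of the receptor KIT, had the largest differences, at -0.68 ± 0.18 SE (adjusted p = 0.0593) and -0.57 ± 0.18 SE (adjusted p = 0.0611), and voom called it lower with both shRNAs (adjusted p = 0.0243 and 0.0454). The receptor kinase EPHA2 differed by 0.43 (adjusted p = 0.0709) with shCENPA1 and 0.05 with shCENPA2. The AKT inhibitor PHLDA3 differed by 0.23 and 0.27, SUSD6 by 0.11 and 0.26, and NINJ1 by 0.20 and -0.08. CYFIP2, a subunit of the actin-regulating WAVE complex, rose with shCENPA2 (0.43 ± 0.12 SE, adjusted p = 0.0315) and differed by 0.32 with shCENPA1 (adjusted p = 0.152). The shCENPA2 call was lost without shCENPA2 library 2 (0.36, adjusted p = 0.1), shNT library 1 (0.46, adjusted p = 0.146) or shNT library 2 (0.40, adjusted p = 0.23). The CYFIP2 call was also lost in limma without a trend. The RNA-binding gene ZMAT3 differed by 0.03 and 0.21. RPS27L shares sequence with other copies of its ribosomal protein family, and its values are less certain for that reason.

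**Figure D3:**
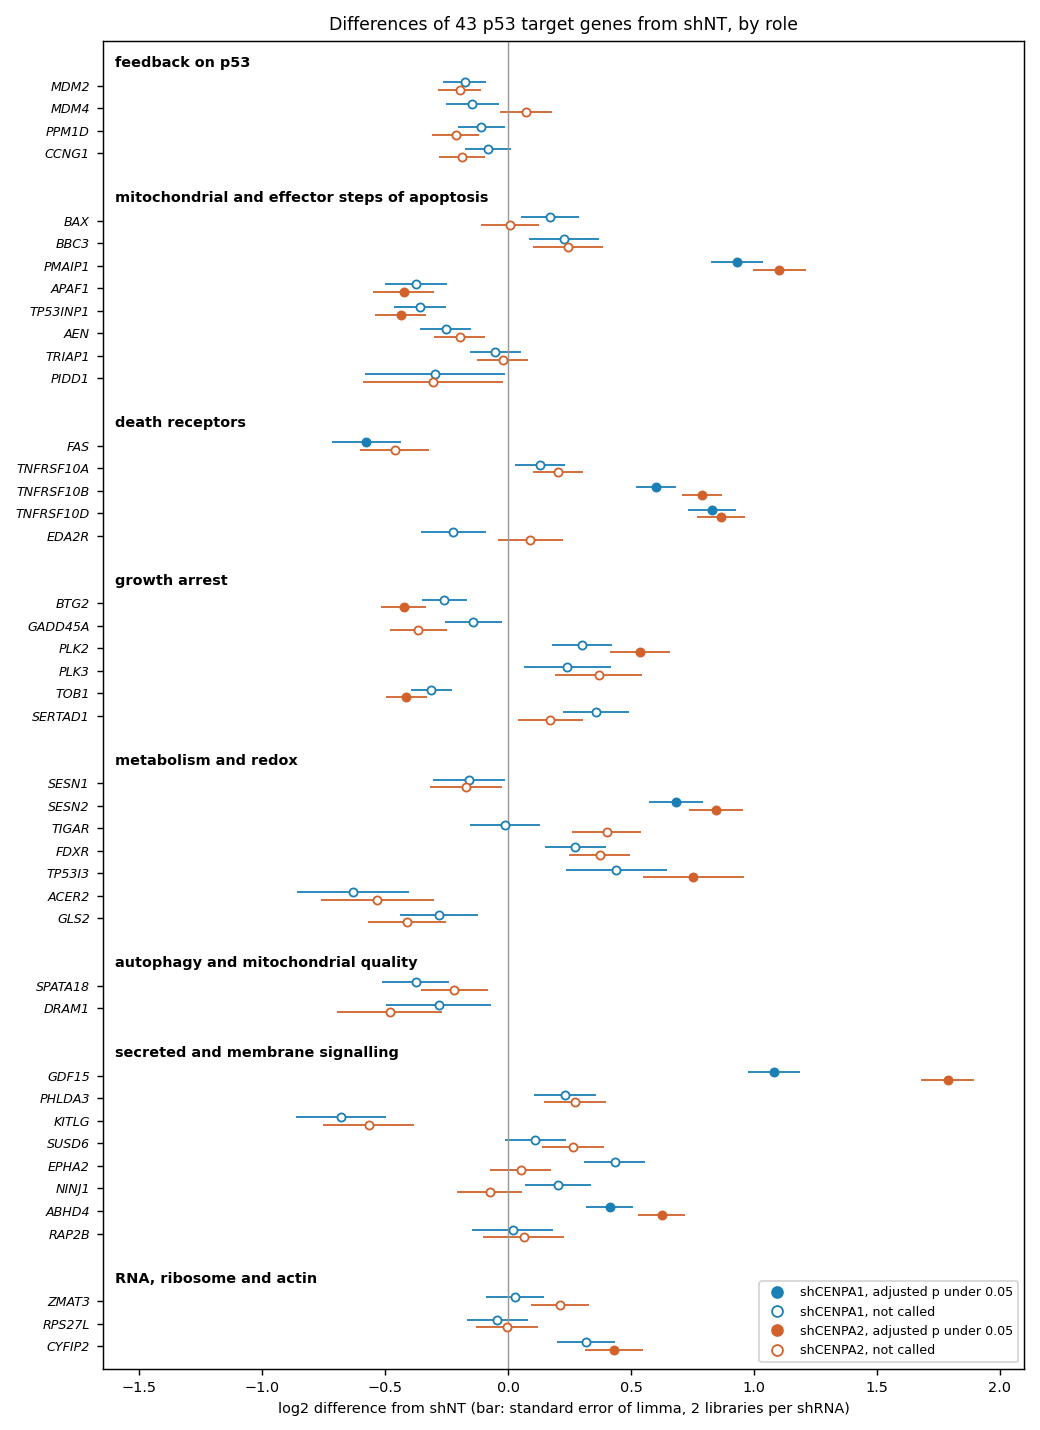
Log2 difference from shNT of each of the 43 p53 targets, grouped by role, for shCENPA1 (blue) and shCENPA2 (orange). Points are differences of means of 2 libraries, bars are limma's standard errors and filled points have an adjusted p under 0.05; filled points on the right number 6 for shCENPA1 and 9 for shCENPA2, those on the left 1 and 4, and the feedback genes at the top have none.

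The other genes of the pathway gave a background for these values. Of 22 other genes that p53 is known to induce, 18 were tested. None was called higher by limma or by voom with either shRNA. Of all genes tested, limma called 2.69% higher with shCENPA1 and 8.05% with shCENPA2. By limma, 2 were called lower with shCENPA1 (11.1%, against 4.45% of all genes tested) and 5 with shCENPA2 (27.8%, against 10.5%). With shCENPA1 and shCENPA2, 5 and 6 of the 18 had an unadjusted p under 0.05 in either direction. Those that fell were CDKN1A and PERP with shCENPA1, and PERP, DDB2, SFN, STEAP3 and CMBL with shCENPA2. The count with shCENPA1 was 1 without either library of shCENPA1 or of shNT and 4 without either library of shCENPA2. That with shCENPA2 was 1 without shNT library 1 and 2 without shNT library 2 or shCENPA2 library 2. The median difference was -0.12 with shCENPA1 and -0.21 with shCENPA2. CDKN1A, which encodes the cyclin-dependent kinase inhibitor p21 and is the best known p53 target, stood at 6.35 and 6.21 with shNT, at 5.80 and 5.82 with shCENPA1, and at 6.19 and 5.91 with shCENPA2. It fell by 0.47 ± 0.11 SE with shCENPA1 (adjusted p = 0.0307) and differed by -0.23 ± 0.11 SE with shCENPA2 (adjusted p = 0.185). The CDKN1A call was lost without shCENPA1 library 1 or 2 (-0.46 and -0.48, adjusted p = 0.113 and 0.16), without shNT library 1 or 2 (-0.41 and -0.54, adjusted p = 0.216 and 0.0913) and without a trend (adjusted p = 0.103). PERP, a desmosomal membrane protein, fell with both, from 5.71 and 5.68 to 4.02 and 4.13 with shCENPA1 and to 5.04 and 5.18 with shCENPA2 (differences -1.62 ± 0.09 SE and -0.59 ± 0.09 SE, adjusted p = 3.58e-05 and 0.00214).

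Of 31 genes of the p53 family and its regulators, 28 were tested, and most did not pass the test. With shCENPA1 0 were called higher (against 2.69% of all genes tested) and 2 lower (7.14%, against 4.45%). With shCENPA2 1 was called higher (3.57%, against 8.05%) and 2 lower (7.14%, against 10.5%). The gene called higher was TP53BP2, which encodes a cofactor of p53. With shCENPA1 and shCENPA2, 2 and 5 had an unadjusted p under 0.05. CDKN2A, whose alternative product ARF restrains MDM2, differed by 0.15 (adjusted p = 0.487) and 0.19 (adjusted p = 0.281). The checkpoint kinase genes CHEK1 and CHEK2 fell with both shRNAs, by 1.01 and 1.20 for CHEK1 (adjusted p = 0.00101 and 0.000158) and by 0.51 and 0.84 for CHEK2 (adjusted p = 0.035 and 0.00137). With shCENPA1 1 of these was called lower without either library of shCENPA1 or of shNT, and TP53BP2 was not called with shCENPA2 without either shNT library or shCENPA2 library 2. The cell cycle genes that p53 lowers through DREAM fell almost throughout. With shCENPA1 17 of 18 were called lower (94.4%, against 4.45% of all genes tested), at a median of -1.14. With shCENPA2 18 of 18 were called lower (100%, against 10.5%), at a median of -1.49. The medians of all genes tested were 0.00 and 0.01. CENPF, a kinetochore gene, differed by -1.40 and -1.74, the spindle checkpoint kinase BUB1B by -1.36 and -1.56, and the mitotic phosphatase CDC25C by -1.31 and -1.44, all with an adjusted p of 0.000696 or less. These genes are expressed mainly in dividing cells.

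Of 13 targets of ATF4, 5 rose (38.5%, against 2.69% of all genes tested) and 1 fell with shCENPA1, and 9 rose (69.2%, against 8.05%) and 1 fell with shCENPA2. The single gene that fell is 7.69% of the list, against 4.45% and 10.5% of all genes tested. The median difference was 0.34 and 0.47. The 5 that rose with shCENPA1 were CHAC1, DDIT4, ASNS, DDIT3 and TRIB3. The glutathione-degrading enzyme CHAC1 stood at 2.57 and 2.51 with shNT, at 3.82 and 3.82 with shCENPA1, and at 4.44 and 4.17 with shCENPA2 (differences 1.28 ± 0.11 SE and 1.76 ± 0.11 SE, adjusted p = 0.000247 and 1.5e-05). DDIT4, an inhibitor of mTORC1, rose by 0.96 and 1.50 (adjusted p = 0.0017 and 5.81e-05), and the asparagine synthetase gene ASNS by 0.63 and 0.94 (adjusted p = 0.00378 and 0.000169). The amino acid transporter subunit SLC3A2 fell by 0.58 and 0.39 (adjusted p = 0.0146 and 0.0384). The count with shCENPA1 dropped to 3 higher without shCENPA1 library 2 or shNT library 2, and that with shCENPA2 to 5 without shNT library 2. Of 9 tested immediate early genes, which mark acute handling stress, 1 (JUNB) rose with shCENPA1 by limma (11.1%, against 2.69% of all genes tested). None fell with shCENPA1 (against 4.45%). With shCENPA2 0 rose (against 8.05%) and 0 fell (against 10.5%), and 3 had an unadjusted p under 0.05 with each shRNA.

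**Figure D4:**
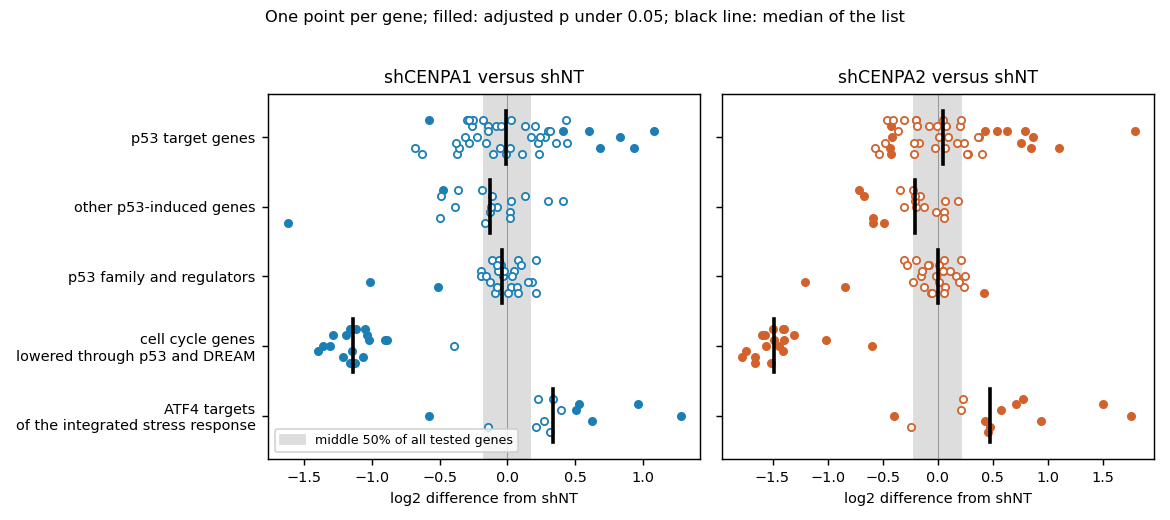
Log2 difference from shNT of every tested gene of the p53 targets and of 4 other lists, with shCENPA1 on the left and shCENPA2 on the right. Filled points have an adjusted p under 0.05, black lines are list medians and the gray band holds the middle 50% of all genes tested; the p53 targets scatter to both sides of 0 around medians of -0.01 and 0.05, the cell cycle genes lie to the left and the ATF4 targets mostly to the right.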

How the data were processed

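The authors deposited log2 RPKM values per run for 14828 genes. By the submitters' processing notes and the paper's methods, the authors used Trim Galore, STAR, HTSeq and edgeR with hg38, and the versions are not given in the sources used here. Whole reads were recovered from the steps of the log2 values for 14828 of 14828 genes (tolerance 0.001 reads) and gave the depth, 79172294 to 133074655 reads per library. The 2 lanes of a library agreed nearly within sampling noise (chi-square per gene 1.24 to 1.31, against 26.5 to 80.1 between libraries of a group) and were averaged as 1 replicate. Every column of the table was used.

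A gene was tested where its log2 RPKM averaged -3 or more, which left 14624 genes. The model was that of limma 3.58.1 (R 4.3.3) with a variance trend. It held 3 groups and no covariate, and no further constant was added. The prior in the deposited values draws differences of weakly expressed genes towards 0. A call is a Benjamini-Hochberg adjusted p under 0.05. Counts at an unadjusted p under 0.05 are descriptions, since the share of all genes tested at that cutoff is not given here. An exact permutation test of 2 libraries against 2 cannot go below 0.33 and was not used. Intervals are 95% intervals of limma.

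The members and gene lists were chosen with earlier results of these data known, so counts over them are descriptions. Every member is accounted for. Library values are given for members called with both shRNAs in one direction or between them and for MDM2, PPM1D, BAX, BBC3, PMAIP1, FAS, GADD45A and GDF15, and, chosen after values were seen, for TP53I3 and in part PIDD1. From the other lists CDKN1A, CDKN2A and up to 3 genes called in each direction with both shRNAs are named, while COL1A1, DCN, LUM, DDB2, SFN, STEAP3, CMBL, TP53BP2, DDIT3, TRIB3 and JUNB, and the order in which other members are described, were chosen after values were seen. The values of 1 other gene are not reported here. Gene positions are from GENCODE 44 on GRCh38, the assembly of hg38, and promoters from RefSeq on GRCh38.p14. The 19 alternatives comprise 2 constants added to RPKM (0.1 and 1), 2 filters, 2 normalizations, voom on recovered reads, no trend, only the groups compared, single lanes, lanes as replicates, the replicate block and each library left out.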

Additional observations from a re-analysis of the deposited data

Results flagged for a closer look

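The CENPA shRNAs differed by limma's test between them for GDF15, which was 0.71 (log2) higher with shCENPA2 than with shCENPA1 (adjusted p = 0.0142), in all 19 alternatives in that direction and past the threshold in 16 of them. PERP was 1.03 (log2) higher with shCENPA2 than with shCENPA1 (adjusted p = 0.00117), after a larger fall with shCENPA1. CENPA differed by -0.98 on the same scale, and its part in either difference was not tested. Groups of 2 libraries are too small for a test of single outlying samples.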

How the results depend on the processing

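Under the 19 alternatives, each of the calls of GDF15, PMAIP1, TNFRSF10B and TNFRSF10D against shNT was kept with both shRNAs, and no named p53 target that was called reversed its direction. With each lane as a replicate, which treats repeat runs as samples, 13 p53 targets were higher and 14 lower with shCENPA1, 16 higher and 14 lower with shCENPA2, and 8 higher and 3 lower between the CENPA shRNAs. The share of all genes called in that fit is not given here, so these counts are descriptions. With shCENPA1, 2 p53 targets were lower with 1 added to RPKM, with voom and with only the groups compared, and 0 with lane 8 only. Limma without a trend called 0 higher between the CENPA shRNAs, and voom moved the median between them from 0.0443 to 0.0731. With a library left out, the count with shCENPA1 ranged from 4 to 7 higher and from 0 to 2 lower, with a median of -0.0829 to 0.0381. With shCENPA2 it ranged from 6 to 9 higher and from 0 to 5 lower, with a median of -0.0155 to 0.111, and between the CENPA shRNAs from 0 to 1 higher, 0 lower and a median of 0.0394 to 0.061. It was 0 lower with shCENPA2 without shNT library 1 or shNT library 2. A lone library was then assumed to vary like the other groups.

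Libraries with the same number did not deviate together (correlations of -0.06, -0.10 and -0.15). These values show no shared deviation by number, and cannot tell whether such libraries were prepared together. A replicate block left 0 p53 targets lower with shCENPA1 and dropped the ABHD4 and FAS calls there (adjusted p = 0.0629 and 0.0687). With shCENPA2 it dropped the APAF1 and CYFIP2 calls (adjusted p = 0.0716 and 0.0545), which left 8 higher and 3 lower. Reads were fewest for DRAM1 (180 to 373 in a library) and TP53I3 (192 to 451), and 2 libraries per group limit the precision for every member.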
